A study of Drosophila melanogaster with 3 samples.

Results

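The small nuclear RNA (snRNA) genes of Drosophila melanogaster were examined for binding of the protein encoded by CG4424, a zinc finger protein. Members were the genes whose annotated symbol starts with snRNA: on the chromosome arms of build dm6, and there were 32 of them among 18164 annotated genes. They comprise 24 genes for the RNAs of the major spliceosome (5 U1, 6 U2, 3 U4, 7 U5 and 3 U6 genes), 4 for those of the minor spliceosome (U4atac, U6atac, U11 and U12) and 4 others. The others are U7, 7SKa, 7SKb and LU, which the symbol rule takes in although U7 and 7SK are not parts of a spliceosome. All 32 symbols were also found in the RefSeq gene table.

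The 3 biological replicates form 1 group of whole embryos, 0 to 16 h old and of pooled sexes, from 1 transgenic line that stably expresses CG4424 with GFP at its C terminus. Bound DNA was recovered with an antibody against GFP, so the tagged protein was measured rather than the untagged one, and in all tissues together. Each replicate has its own list of called regions (22198, 30000 and 29796 regions in replicates 1, 2 and 3). The pooled reads gave a list of 29056, and the authors' reproducibility threshold left an optimal set of 6420. By its name the pooled list holds peaks and background, as input for that threshold. A summit found there but not in the optimal set may therefore be background. Every region carries a summit, a single base, and the question put to these lists was where summits lay around snRNA genes. In the regions near these genes the summit stood at the middle of the region, and the median region width was 420 or 440 bp by list. Positions below are therefore those of region centres, and are not shown to be exact to the base. Read depth is unknown, since no read counts are used here.

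Bound to proteins, snRNAs form small nuclear ribonucleoproteins (snRNPs), the particles that recognise introns in the nucleus and remove them from pre-mRNA. The U1, U2, U4 and U5 RNAs leave the nucleus after transcription, receive their ring of Sm proteins in the cytoplasm with the help of the SMN complex, and return. U1 pairs with the 5' splice site, U2 with the branch point, U4 holds U6 inactive until the spliceosome is assembled, U5 aligns the exons and U6 takes part in catalysis. Most snRNA genes are short, intronless and transcribed by RNA polymerase II, whereas U6 is made by RNA polymerase III. In flies both kinds of promoter carry a proximal sequence element A, bound by the snRNA activating protein complex, and the polymerase III type also has a TATA box.

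The promoters of the 7 genes near an optimal summit are shown because they hold this shared element, and 2 genes with no summit in any list are shown with them for comparison. Each run covers 80 bases, from -70 to +9, in the direction of transcription. It was read from the RefSeq assembly of dm6. Capitals mark TTCNCAA, letters of the proximal sequence element A, and any TATAAA or TATATA that begins at -35 to -25, with the first transcribed base as 0.
snRNA:U1:21D promoter, chr2L:901645-901724, minus strand: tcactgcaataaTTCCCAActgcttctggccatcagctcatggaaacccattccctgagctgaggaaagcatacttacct
snRNA:U1:95Ca promoter, chr3R:23859621-23859700, minus strand: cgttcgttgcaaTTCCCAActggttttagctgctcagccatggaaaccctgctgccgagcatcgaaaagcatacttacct
snRNA:U2:34ABb promoter, chr2L:13215769-13215848, plus strand: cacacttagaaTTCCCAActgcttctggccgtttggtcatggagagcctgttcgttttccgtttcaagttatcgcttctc
snRNA:U4:39B promoter, chr2L:21215169-21215248, minus strand: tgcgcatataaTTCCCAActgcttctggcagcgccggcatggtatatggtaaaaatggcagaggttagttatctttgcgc
snRNA:U6:96Ab promoter, chr3R:24556622-24556701, plus strand: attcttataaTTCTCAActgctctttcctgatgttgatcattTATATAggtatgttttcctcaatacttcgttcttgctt
snRNA:U6:96Ac promoter, chr3R:24557145-24557224, plus strand: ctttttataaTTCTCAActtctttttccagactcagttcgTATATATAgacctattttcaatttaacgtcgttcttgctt
snRNA:7SKa promoter, chr3R:7474987-7475066, minus strand: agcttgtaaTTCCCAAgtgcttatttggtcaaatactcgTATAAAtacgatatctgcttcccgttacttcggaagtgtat
snRNA:U2:38ABb promoter, chr2L:19812576-19812655, plus strand: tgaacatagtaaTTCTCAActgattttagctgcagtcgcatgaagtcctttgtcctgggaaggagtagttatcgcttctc
snRNA:U5:38ABa promoter, chr2L:19812065-19812144, minus strand: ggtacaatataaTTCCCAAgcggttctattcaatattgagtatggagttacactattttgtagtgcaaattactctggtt
The letters TTCNCAA stood in 31 of the 32 members, with the first base at -64 to -55 and a median of -58. They were missing from 7SKb alone. On either strand, anywhere from 250 bases before to 50 after the start, they occurred in 19.2% of the 18132 other gene promoters, and in the transcribed direction with the first base at -65 to -50 in 0.557% of them. TTCNCAA was chosen after the promoters were aligned. The stricter TTCCCAA, which it contains, was found in 26 members and in 5.17% of the other promoters, and the overlapping AATTCCC in 23 members and in 4.22%. TATAAA began at -35 to -25 in 7SKa and U6atac, and TATATA, also chosen after the sequences were seen, did so in the 3 U6 genes, against 5.23% and 2.33% of other promoters. Over the whole window and both strands, TATAAA was in 15 members and 43.9% of other promoters, and TATATA in 9 and 22.9%.

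The shared element was found both in genes with a summit and in genes without one. TTCNCAA was present in 7 of the 7 genes near an optimal summit and in 14 of the 14 genes with no summit in any list. Those letters were chosen from the promoters of the members, so these counts cannot tell whether the element separates the genes. For TTCCCAA the counts near an optimal summit and with no summit were 5 of 7 and 11 of 14. The letters TATCGATA, known for the insulator-associated factors DREF and BEAF-32, and GGTCACACT, known for the promoter factor M1BP, were in none of the 32 snRNA promoters, against 7.53% and 4.80% of the others, on either strand.

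A summit of the optimal set lay within 500 bp of the start of 7 of the 32 snRNA genes (21.9%). The same was true of 7.45% of the 4187 other noncoding genes and of 24.9% of the 13945 protein-coding genes. The 7 genes were U1:21D, U1:95Ca, U2:34ABb, U4:39B, the neighbours U6:96Ab and U6:96Ac, and 7SKa. The U6 pair shared 1 summit, so 6 distinct summits account for the 7 genes. No statistical test was applied to these shares, because genes are not replicates and the design has 1 group. In the pooled list 14 snRNA genes had a summit in the window (43.8%), against 27.8% of other noncoding genes.

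The replicate lists gave 11, 15 and 14 snRNA genes in replicates 1, 2 and 3, a mean of 41.7% ± 6.51 (SD, n = 3) of the 32. Other noncoding genes stood at 21.6%, 28.7% and 28.5% in the same lists, so the snRNA share was above theirs in each of the 3 replicates. In all 3 replicate lists together there were 9 snRNA genes (28.1%), against 14.3% of other noncoding genes. These 9 were the 7 genes of the optimal set with U1:82Eb and U1:95Cb. In none of the 5 lists was there a summit near 14 genes.

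Counts by class are given without a test, since most classes hold few genes. All 5 U1 genes had a summit in the pooled list, 4 of them in every replicate list and 2 in the optimal set. The U1 copies are 98.2% to 100% identical over the transcribed part, and the U2 copies 98.4% to 100%. How reads from shared sequence were placed is not stated, so the lists may not show which copy was bound. Over the replicates the share of U1 genes was 86.7% ± 11.5 (SD, n = 3). Among the 6 U2 genes, U2:34ABb was in the optimal set and every replicate, U2:34ABc was in the pooled list, U2:34ABa was in replicate 2 alone, and 3 had no summit. Of the 3 U4 genes, U4:39B had a summit in all 5 lists and U4:25F and U4:38AB had none in any.

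None of the 7 U5 genes had an optimal summit and none was in all 3 replicate lists, although U5:63BC and U5:34A were in the pooled list. The replicate share of U5 genes was 28.6% ± 14.3 (SD, n = 3). Of the 3 U6 genes, U6:96Ab and U6:96Ac were in all 5 lists, and U6:96Aa, the first gene of the same tandem cluster, had no summit in the window. The 4 genes of the minor spliceosome, which removes a rare class of introns, had none in the optimal or pooled list, and U11 alone had 1 weak summit, in replicate 3, with signal 23.8. Outside the spliceosome, 7SKa was in all 5 lists, 7SKb was in replicate 3 alone, U7 was in the pooled list and replicate 3, and LU was in none. The 7SK RNA is known for holding the elongation factor P-TEFb inactive, and U7 for processing the 3' ends of histone mRNAs.

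**Figure D1:**
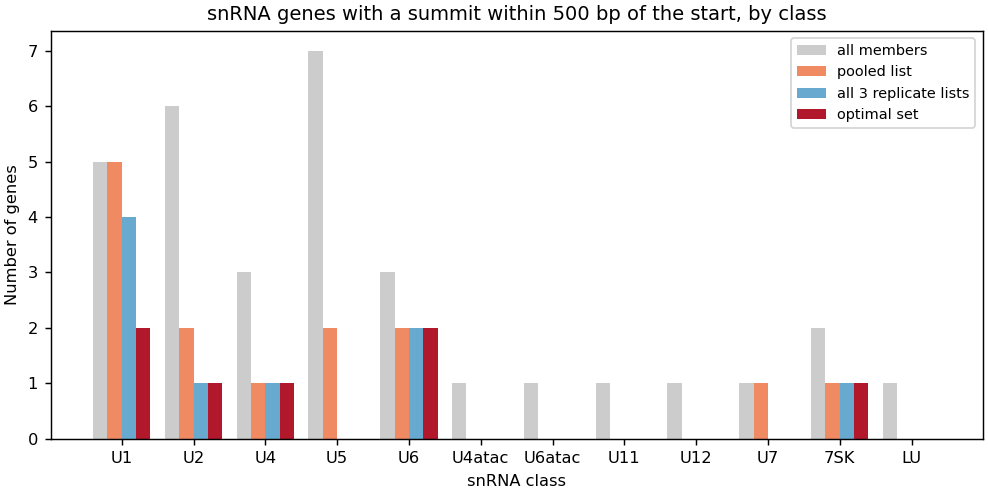
Number of snRNA genes of each class (horizontal axis) with a summit within 500 bp of the start (vertical axis, genes); bars show all members, the pooled list, all 3 replicate lists and the optimal set. All 5 U1 genes are in the pooled list, and the optimal set holds 2 U1, 1 U2, 1 U4, 2 U6 and 1 7SK gene and no U5 or minor-class gene.

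The strongest summit near an snRNA gene lay between U6:96Ab and U6:96Ac on 3R at position 24557070, outside both transcribed units. Positions are given relative to the first transcribed base, positive in the direction of transcription, and this summit lay at -145 bp for U6:96Ac and at +378 bp for U6:96Ab. Its signal was 340.6 in the optimal set, rank 2941 of 6420. Signal was 106.7, 118.1 and 111.9 in replicates 1, 2 and 3. It lay at -104, -138 and -127 bp from the U6:96Ac start in those lists, each upstream of that gene. Signals have no stated scale and cannot be compared between lists, so each was also ranked as a percentile of its own list, with 100 the strongest region. That percentile was 89.1 ± 1.12 (SD, n = 3), the highest of the 6 summits. A weaker summit over the U6:96Ac gene itself had signal 72.6 in the pooled list, 56 bp after the start.

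U2:34ABb on 2L had its summit at position 13215992, inside the gene and 153 bp after the start, with signal 260.4 and rank 4210. In replicates 1, 2 and 3 the signal was 68.8, 102.5 and 83.2, and the summit lay 162, 166 and 189 bp after the start. Every replicate thus placed it in the last part of the 192 bp gene. Its percentile was 83.4 ± 2.59 (SD, n = 3). The start of kek4, a protein-coding gene on the opposite strand, lies at -489 bp from the U2:34ABb start and 642 bp from the summit.

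U1:95Ca on 3R had its optimal summit at position 23859620, 10 bp after the start, with signal 248.0 and rank 4454. The strongest summits in replicates 1, 2 and 3 lay 41, 160 and 144 bp after the start, with signals of 85.7, 85.8 and 74.1. The position therefore varied across most of the 164 bp gene, with an SD of 64.6 bp (n = 3), while the percentile stayed at 82.9 ± 2.22 (SD, n = 3). Replicates 2 and 3 each listed a weaker summit as well, at -41 and -62 bp.

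U1:21D on 2L showed a like pattern, with the optimal summit at position 901504, 150 bp after the start, signal 245.6 and rank 4521. Its main summits in replicates 1, 2 and 3 lay 12, 110 and 176 bp after the start, with signals of 86.8, 87.0 and 75.2. Replicate 3 thus put it 13 bp past the end of the gene and replicate 1 near its start. The percentile was 83.3 ± 2.20 (SD, n = 3). A weaker pooled summit, of signal 102.5, lay at -55 bp, and replicate 3 had one at -35 bp.

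The summit at 7SKa, on 3R at position 7474709, lay 287 bp after the start of this 444 bp gene, with signal 214.3 and rank 5397. Replicates 1, 2 and 3 placed it 298, 267 and 287 bp after the start, with signals of 41.1, 97.0 and 82.8. Replicate 1 stood lower than the others, at percentile 62.0 against 84.1 and 84.5, and the mean was 76.9 ± 12.9 (SD, n = 3). U4:39B lies inside Atg18b on 2L, on the same strand, and its summit at position 21215084 was 94 bp after the start. Signal there was 190.6, rank 6268, close to the lowest signal of the optimal set, 186.2. In replicates 1, 2 and 3 the summit lay 101, 71 and 94 bp after the start, with signals of 47.2, 77.2 and 57.7 and a percentile of 74.0 ± 5.30 (SD, n = 3).

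The position was steady at U6:96Ac, U2:34ABb, 7SKa and U4:39B and wide at both U1 genes. The SD of the position over the replicates was 17.3, 14.6, 15.7 and 15.7 bp at the former and 64.6 and 82.5 bp at U1:95Ca and U1:21D. By rank, U6:96Ac, U2:34ABb and both U1 genes were among the strongest 6420 regions in 3 of 3 replicates, 7SKa in 2 and U4:39B in 1. Within the optimal set the median percentile of the 6 summits was 30.1, so most were below the middle of that set.

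**Figure D2:**
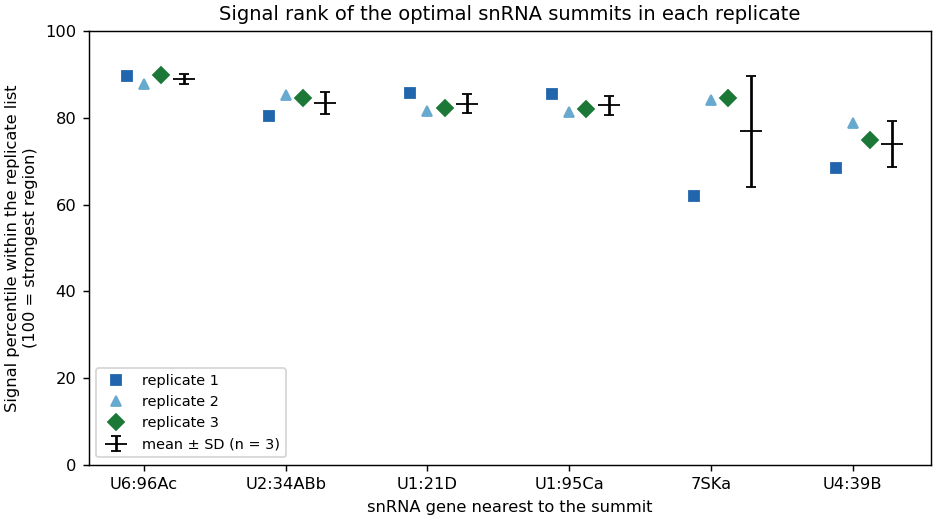
Signal percentile (vertical axis, 100 the strongest region of the list) of the summit at each of 6 snRNA genes (horizontal axis) in replicates 1, 2 and 3, with mean and SD in black. U6:96Ac is highest at 89.1 ± 1.12, and 7SKa has the widest spread, 76.9 ± 12.9, through replicate 1.

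The sequences at these 6 summits are shown because 5 of them fell in the transcribed part. Each run is 101 bases long, centred on the summit and read in the direction of transcription of the named gene, with transcribed snRNA bases in capitals.
snRNA:U1:95Ca summit window, chr3R:23859570-23859670, minus strand: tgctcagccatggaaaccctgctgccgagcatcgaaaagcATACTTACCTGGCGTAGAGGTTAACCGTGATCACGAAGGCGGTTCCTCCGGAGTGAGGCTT
snRNA:U1:21D summit window, chr2L:901454-901554, minus strand: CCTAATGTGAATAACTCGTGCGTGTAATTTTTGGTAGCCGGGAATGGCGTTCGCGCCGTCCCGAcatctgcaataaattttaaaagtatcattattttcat
snRNA:U2:34ABb summit window, chr2L:13215942-13216042, plus strand: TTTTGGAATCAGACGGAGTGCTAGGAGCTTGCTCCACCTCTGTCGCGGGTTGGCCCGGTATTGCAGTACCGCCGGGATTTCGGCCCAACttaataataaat
snRNA:U4:39B summit window, chr2L:21215034-21215134, minus strand: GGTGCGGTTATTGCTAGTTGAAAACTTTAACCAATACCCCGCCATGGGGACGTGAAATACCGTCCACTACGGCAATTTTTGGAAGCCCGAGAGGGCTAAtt
snRNA:7SKa summit window, chr3R:7474659-7474759, minus strand: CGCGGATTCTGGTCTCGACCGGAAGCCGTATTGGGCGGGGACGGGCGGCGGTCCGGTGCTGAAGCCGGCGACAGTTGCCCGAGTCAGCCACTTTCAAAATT
snRNA:U6:96Ac summit window, chr3R:24557020-24557120, plus strand: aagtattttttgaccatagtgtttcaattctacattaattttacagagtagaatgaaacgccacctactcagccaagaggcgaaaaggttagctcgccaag
Transcribed bases made up 61, 64, 89, 99 and 101 of the 101 bases at U1:95Ca, U1:21D, U2:34ABb, U4:39B and 7SKa, and none at U6:96Ac. The median GC content of the 6 windows was 50.5%, against 31.7% over all 6420 optimal summits. None of the motif letters named above occurred within 50 bp of these 6 summits. Of the 6420 optimal windows 7.04% held TTCNCAA, 22.8% TATAAA, 10.9% TATATA, 1.96% TATCGATA and 0.592% GGTCACACT. The optimal summits lay downstream of the first base of TTCNCAA by 68 bp at U1:95Ca, 153 at U4:39B, 208 at U1:21D, 212 at U2:34ABb and 348 at 7SKa, and at -85 bp, upstream of it, at U6:96Ac.

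In each of the 5 lists more summits near snRNA genes lay over the gene than before it. In the optimal set 5 of 6 were in the gene body and 1 upstream, with a median position 122 bp after the start. In the pooled list 10 of 14 distinct summits were in the body, 2 upstream and 2 past the end, with a median of 84.5 bp after the start. Replicate lists had 7 of 9, 8 of 17 and 8 of 16 in the body, which was no majority in replicates 2 and 3. Their share in the body was 58.3% ± 17.0, the share upstream 23.9% ± 11.1, and the median position 103 ± 6.05 bp after the start (SD, n = 3).

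**Figure D3:**
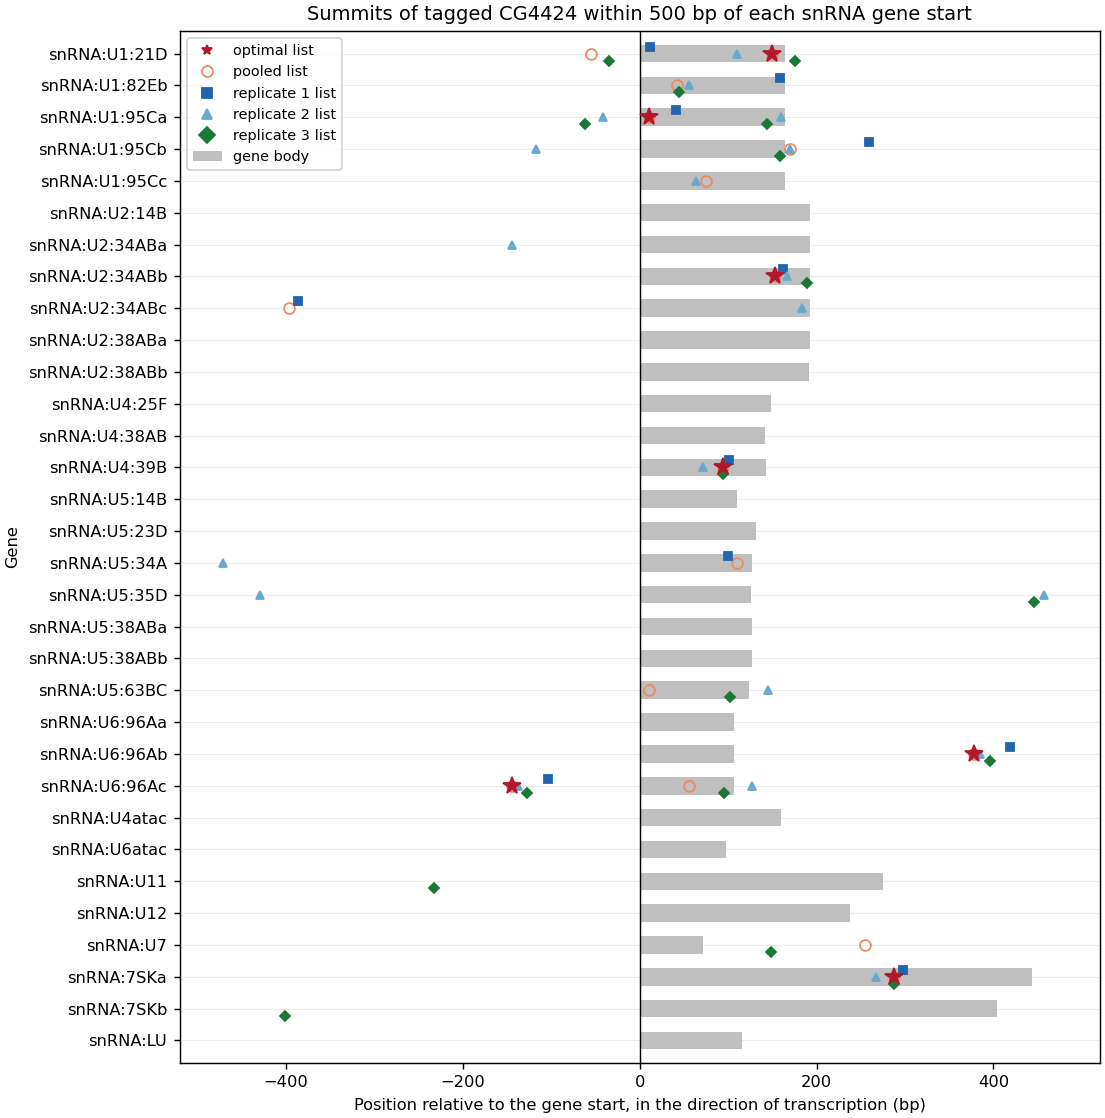
Summits within 500 bp of the start of each of the 32 snRNA genes (rows), by position relative to the start in bp in the direction of transcription (horizontal axis); grey bars are the gene bodies and symbols the optimal, pooled and replicate lists. Most optimal and pooled symbols lie over the bodies, the U6:96Ac optimal summit lies at -145 bp, and 14 rows hold no symbol.

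Summits at other kinds of gene in the same lists are set beside these as a description, with no test. Where the nearest start was that of a protein-coding gene, 84.9% of 2780 optimal summits were upstream of it, with a median position of -111 bp, against 16.7% of the 6 at snRNA genes. In the pooled list 69.8% of 7861 protein-coding summits were upstream, against 14.3% of the 14 at snRNA genes. Transfer RNA genes, also short and without introns in most cases, had 50.9% of 112 pooled summits upstream, and small nucleolar RNA genes 59.5% of 37.

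**Figure D4:**
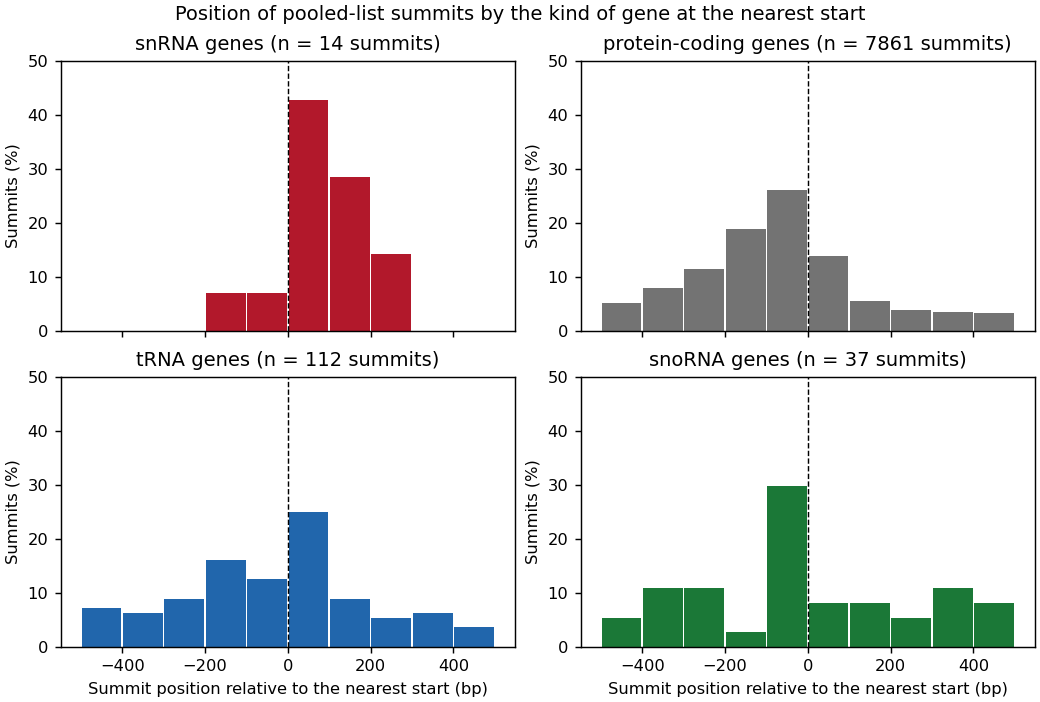
Share of pooled summits (vertical axis, %) in 100 bp bins of position relative to the nearest start (horizontal axis, bp; the dashed line is the start) for snRNA, protein-coding, tRNA and snoRNA genes. Of the 14 snRNA summits 14.3% lie before the start, against 69.8% for protein-coding genes.

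The multiple copies of these genes bear on how summits can be placed. The 5 U1 genes were 98.2% to 100% identical over the transcribed part, the 6 U2 genes 98.4% to 100%, and the 3 U6 genes were all the same. U4 copies shared 73.8% to 94.4% and U5 copies 78.5% to 96.1% of their bases. In U1:21D, U1:95Ca, U2:34ABb and the U6 genes, 0% of the 50-base words of the gene body occurred once in the genome, while all of those in the 250 bp upstream did. Within 150 bp of the optimal summit, the words found once were 53.2% at U1:21D, 52.8% at U1:95Ca, 44.0% at U2:34ABb and 84.1% at U4:39B. At 7SKa and U6:96Ac they were 100%. How the authors placed reads from repeated sequence is not stated in the labels or lists. Its part in the positions, the signals and the counts of copies was not tested. The median share of body words found once was 0% over the 7 genes near an optimal summit and 47.0% over the 14 genes with no summit. With the 250 bp on each side of the body included, the medians were 87.4% and 91.2%. Of those 14 genes with no summit, U4:25F, U4atac, U6atac, U12 and LU had bodies found once throughout. At U2:38ABa and U6:96Aa, also among them, 0% of the body words were found once.

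Among genes outside the optimal set, U1:82Eb had the highest pooled signal, 136.4, with its summit 42 bp after the start and at 159, 56 and 44 bp in replicates 1, 2 and 3. U1:95Cb followed with 107.9, 7 bp past its end, and U5:63BC with 99.7, 10 bp after the start. The remaining pooled signals were 67.6 at U7, 64.5 at U1:95Cc and 64.5 at a summit shared by U5:34A and U2:34ABc, ranks 23405, 25045 and 25089 of 29056. These last summits were in the weaker part of the list, and none was in all 3 replicates. Between 500 and 1000 bp, an optimal summit lay 934 bp after the start of U5:38ABb, and the summit shared by the U6 pair lay 982 bp after that of U6:96Aa.

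Few snRNA genes stood near a protein-coding promoter. Of the 32, 27 had no protein-coding start within 1000 bp. The same was true of 3002 of the 4187 other noncoding genes, so this isolation is not particular to snRNA genes. An optimal summit lay near 6 of the 27 isolated snRNA genes, against 5.13% of the 3002 others. A protein-coding start lay within 500 bp of 3 snRNA genes, of which only U2:34ABb was in the optimal set. Of the 16 genes inside a protein-coding gene, 1 was in the optimal set and 4 in the pooled list, and of the 16 outside, 6 and 10. Other noncoding genes stood at 7.45% in the optimal set and 27.8% in the pooled list. They were not split by whether they lie inside a protein-coding gene, so this contrast has no background. For each of the 6 optimal and 14 pooled summits the snRNA start was the nearest annotated start of any gene. The 3 exceptions in replicate lists were at U5:35D, where summits at -429, +446 and +457 bp lay nearer the protein-coding genes Mtr4 and ND-B17.

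Protein-coding genes of the snRNA pathway were read from lists by role, with 71 genes in 8 lists. Of these, 29 (40.8%) had an optimal summit within 500 bp of a start, against 24.9% of all protein-coding genes. In the strongest 6420 regions of each replicate list, rather than the whole lists, the mean share of pathway genes was 43.2% ± 4.53 (SD, n = 3), against 25.8%, 25.6% and 23.6% of all protein-coding genes in replicates 1, 2 and 3. The 32 snRNA genes stood at 18.8% ± 3.12 (SD, n = 3) by that count, for which no share of other noncoding genes was taken. At 28 of the 29 pathway genes the summit lay upstream of the gene's own start, with a median position of -134 bp over the 29. Upstream summits were also usual at protein-coding genes in general. Where the nearest start of any gene was protein-coding, 84.9% of 2780 optimal summits were upstream, with a median of -111 bp. At snRNA genes 16.7% of the 6 optimal summits were upstream. Median signal at the pathway genes was 336.9. For 17 of the 29 the gene's own start was the nearest to the summit.

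Counts by role are given without a test, since each list is short, and are to be read beside the 24.9% of all protein-coding genes. Factors that transcribe snRNA genes included 5 of 11 (45.5%). Bdp1 and Brf, subunits of the polymerase III factor TFIIIB, had signals of 1884 and 1298. Ice1, of the little elongation complex, had 455.4, and Pbp95, a subunit of the snRNA activating complex, 328.2. The other subunits of that complex, Pbp45 and Pbp49, had no optimal summit. Integrator, which cleaves the 3' ends of nascent snRNAs, included 6 of 13 (46.2%), with IntS6 at 812.0, IntS9 at 730.2, IntS4 at 420.2 and defl at 408.4.

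The same 24.9% of all protein-coding genes stands beside the lists that follow. The Sm ring, which wraps the assembled snRNAs, included 3 of 7 genes (42.9%), SNRPG with signal 518.7, SmB with 267.4 and SmD3 with 199.4. The LSm ring of U6 included 1 of 3 (33.3%), LSm7 with 336.5. Assembly and export genes included only Smn among 10 (10%), with signal 268.3 and the summit 3 bp after the start. Proteins of the U1 and U2 particles included 8 of 13 (61.5%), led by Sf3b6 with 774.8, snRNP-U1-C with 514.3, Sf3b1 with 336.9 and Sf3a2 with 318.4. The tri-snRNP included 3 of 8 (37.5%), Prp31 with 494.7, U4-U6-60K with 344.5 and Prp6 with 256.3. Proteins of the 7SK and U7 particles included 2 of 6 (33.3%), bin3 with 1513, which caps 7SK, and Larp7 with 257.5, which binds it. The Lsm10 and Lsm11 genes, for the U7-specific ring, had no optimal summit.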

How the data were processed

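Chromatin immunoprecipitation was sequenced in 3 biological replicates with 1 technical replicate each, on chromatin sonicated to 200 to 800 bp, per the labels. The deposited files are region lists with a signal value per region, called by the authors against a control, per the deposited notes. The scale of the signal, the caller and the aligner are not given in the sources consulted. An irreproducible discovery rate threshold gave the authors' optimal set, per the same notes. Signal was compared only within a list, or as a percentile of it. Lists on dm3 were not used here.

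Summits were counted from 1 on dm6. Genes and transcript starts came from Ensembl release 115 and sequence from the RefSeq assembly of dm6. A gene was counted when a summit lay within 500 bp of a start, and position was measured from the first transcribed base. The optimal set and pooled list derive from the same reads as the replicates, so agreement between them is no independent check. Spread is the SD over 3 replicates. No tests were run, since there is 1 group, and no control list was used here. Members, lists and motifs were chosen with earlier results of these data known. Named are the genes with an optimal summit, the strongest others, all of a class where it is described, and up to 4 per pathway list. Of 79 pathway names 73 matched the annotation, giving 71 distinct genes, and 6 are not analysed here. Alternatives were other windows, nearest start only, stronger regions and each replicate left out. The window search was checked on 3000 simulated starts only. It equalled a slow count at 3000 of them, and bedtools 2.31.1 at 3000 apart from distances at the limit. Python 3.11.15, numpy 2.4.6, pandas 2.3.3, Biopython 1.88 and matplotlib 3.10.9 were used.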

Additional observations from a re-analysis of the deposited data

How the results depend on the processing

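Of 43 alternatives, 28 stayed within 1.5 times the count or 1 SD of the value reported and 15 moved further. Only the median position could change sign, since counts and percentiles are never negative, and it did so in no alternative. Taking the upper part of the optimal set by signal (3210 regions) left 2 snRNA genes of 7, the U6 pair, and 17 of the 29 pathway genes. Counting pathway genes only where their own start was nearest also gave 17. Taking the 6420 strongest regions of each replicate left 5 snRNA genes in all 3 instead of 9. The median position of 122 bp after the start was 84.5 in the pooled list, 94 with a window of 250 bp and 150 with 1000 bp, and 80 to 150 with a replicate left out. The median percentile of 30.1 was 62.7 in the pooled list, where weaker regions are included, and 30.6 to 32.5 with a replicate left out. Leaving out a replicate also filtered the set, since an optimal region was kept if the 6420 strongest regions of each remaining replicate overlapped it. That filter with all 3 replicates kept, added after seeing the data, gave 5 snRNA genes, without U4:39B and 7SKa, a median position of 80 bp and a median percentile of 32.5, so these values do not show the effect of a replicate alone. With a replicate left out the count was 5 to 6. The count of 7 snRNA genes was 5 at 250 bp, 9 at 1000 bp and 6 by nearest start. It was 6 without the other snRNAs and 6 among genes with no coding start within 1000 bp, both chosen after seeing the data. Other causes were not tested. No paired analysis was possible because there is 1 group. Read depth and control signal are unknown, so the absence of a listed summit does not show absence of binding.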
